A study of Mus musculus with 9 samples.

Results

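The nuclear genes of oxidative phosphorylation (OXPHOS) were followed in thymic invariant natural killer T (iNKT) cells, a lineage of innate-like T cells that matures in the thymus through numbered stages. Members were chosen by name alone: the protein-coding genes whose symbol starts with Nduf, Uqcr, Cox4 through Cox8 or Atp5, together with *Sdha*, *Sdhb*, *Sdhc* and *Sdhd*, and without the Ndufaf assembly factors. This rule took 78 of the 21883 genes in the expression table. Of these, 36 encode subunits of complex I, 4 of complex II, 8 of complex III, 13 of complex IV and 15 of complex V. The other 2, *Atp5s* and *Atp5sl*, carry a matching symbol without being subunits of the enzyme, and they are counted among the members but in no complex. *Ndufa4*, named after complex I, was placed with complex IV, where its protein is now assigned, and *Cox7a2l*, a factor that joins complexes into supercomplexes, was kept with complex IV.

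RNA from sorted cells was sequenced in 9 libraries, 3 in each of 3 groups. WT stage 2 cells (CD24lo CD44hi NK1.1lo) and WT stage 3 cells (CD24lo CD44hi NK1.1hi) came from C57BL/6 mice of 6 weeks. *Med23*-deficient stage 2 cells came from mice of the same strain label that carried *Med23* fl/fl alleles and *Cd4*-*Cre*. In such mice the gene for this Mediator subunit is lost by the double-positive thymocyte stage, thus in conventional T cells as well as in iNKT cells, and the labels give no age for them. Whether these libraries were prepared together with the WT libraries is not given in the sources used here, so a difference in preparation and the genotype cannot be told apart. The labels do not tie replicates to separate animals, and the p-values below measure the spread between these libraries. Levels are FPKM, fragments scaled by transcript length and by the mapped total of the library, as the authors deposited them. Read counts are not given with them, and how deeply each library was sequenced is not known.

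OXPHOS is the process by which mitochondria turn the energy of nutrients into ATP. Complex I takes electrons from NADH and complex II takes them from succinate in the tricarboxylic acid (TCA) cycle. Ubiquinone carries them to complex III, cytochrome c carries them to complex IV, and there they reduce oxygen. Complexes I, III and IV pump protons across the inner membrane, and complex V, the ATP synthase, lets the protons flow back through its ring of c subunits to make ATP. A small set of core subunits is encoded by mitochondrial DNA, and all other subunits, complex II included, are encoded in the nucleus, made in the cytosol and imported. In T cells this machinery is known to be built up when cells grow and divide, and nuclear respiratory factor 1 (NRF1), the ETS-family factor GABP and YY1 are known regulators of its nuclear genes.

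For the targeted gene itself, WT stage 2 libraries had 5.51, 5.15 and 6.74 FPKM and *Med23*-deficient libraries had 4.80, 3.6 and 3.92. The groups did not overlap, but the log2 fold change of -0.41 (SE 0.18, limma adjusted p = 0.552) did not pass the test, and since the value pools all exons it does not check the deletion. Across the 9 libraries, 15584 to 17333 genes were above 0, and the small non-coding gene model *Gm23935* took between 62.2% and 71.9% of the summed FPKM. The iNKT genes *Trac* and *Zbtb16* were present in every group at mean levels between 281 and 362 FPKM and between 27.5 and 101 FPKM, respectively. Summed FPKM of the 6 double-positive thymocyte markers stayed between 0.95 and 4.99 per library, of the 4 myeloid markers (*Itgam* in 2 entries) between 0.10 and 2.33, and of *Cd79a* and *Cd79b* of B cells between 0 and 0.50. *Hbb-bs* of red cells reached 0.75 in 1 library, and *Ckm* and *Acta1* of striated muscle together reached 0.18.

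OXPHOS genes were among the more abundant transcripts of these cells. The median member had a mean level over the 9 libraries of 15.8 FPKM, beside 3.41 for all protein-coding genes, and 71.8% of the members reached a mean of 10 FPKM, beside 24.2% of protein-coding genes. Of the 78 members, 76 were above 0 in all 9 libraries and had a mean of at least 1 FPKM. Levels rest on short transcripts: the median length was 1135 bases for members and 3240 bases for protein-coding genes with a mean of at least 10 FPKM, and 35 members were under 1000 bases. The members lie on 19 chromosomes.

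*Cox8a*, which encodes a small subunit of cytochrome c oxidase, was the most abundant member at a mean of 92.2 FPKM over the 9 libraries. It was followed by *Ndufa6* of complex I at 79.1, *Atp5b* at 72.9 and *Atp5a1* at 66.6, the last pair encoding the β and α subunits of the ATP synthase head. The other most abundant genes of their complexes were *Ndufb9* (42.1 FPKM), *Sdha* (35.0) and *Sdhb* (15.2), *Uqcrb* (37.8) and *Uqcrh* (36.3), and *Cox7a2l* (58.2). Per-gene means spanned from 1.37 to 79.1 FPKM in complex I, from 6.87 to 35.0 in complex II, from 11.7 to 37.8 in complex III and from 3.31 to 72.9 in complex V. Genes of the same complex thus differed in level, and their range was narrowest in complex III. The order of the members was kept between groups, with a Spearman correlation across the 78 genes of 0.98 between WT stage 2 and WT stage 3 means and of 0.98 between WT stage 2 and *Med23*-deficient means, a description across genes that are not independent and share the same WT stage 2 libraries.

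**Figure D1:**
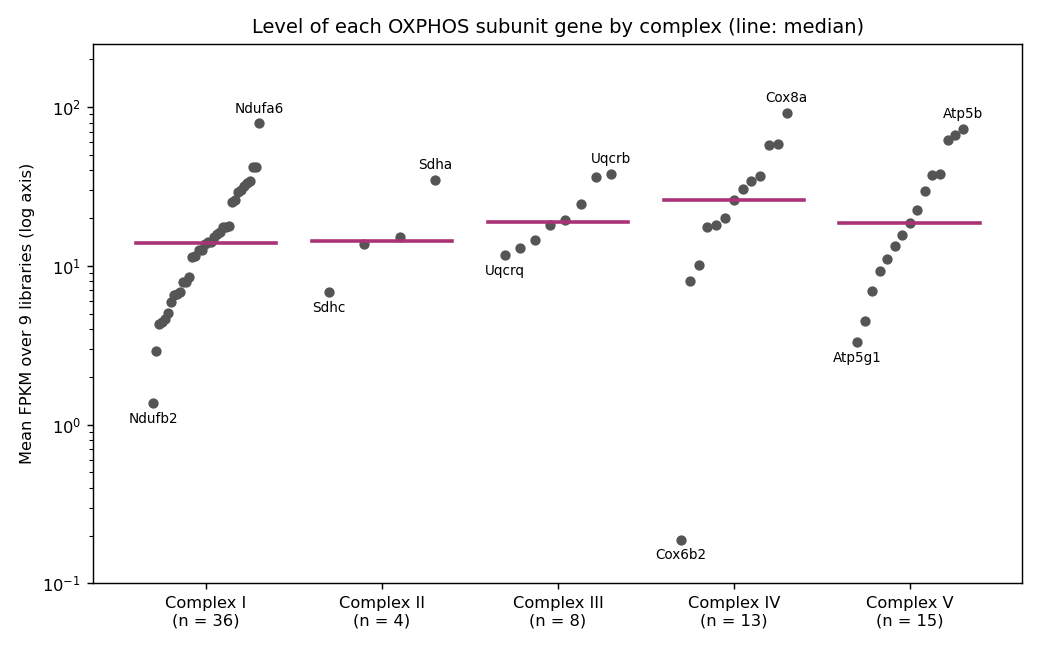
Mean FPKM over the 9 libraries of each subunit gene (points, log axis), arranged by complex with the median of the complex as a line; the lowest and highest gene of each complex are named. Most genes lie between 1.37 (*Ndufb2*) and 92.2 FPKM (*Cox8a*), and *Cox6b2* stands apart at 0.189.

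Several subunits of complex IV have tissue-restricted twins, and the widely expressed forms had these levels. *Cox4i1*, *Cox6a1*, *Cox7a2*, *Cox7b* and *Cox8a* had means of 36.9, 57.6, 19.9, 30.6 and 92.2 FPKM, and *Cox6b1* had a mean of 34.2. *Cox6b2*, the testis form of *Cox6b1*, was listed at 0 in 8 libraries and at 1.70 FPKM in *Med23*-deficient replicate 2. The c subunit of the ATP synthase is encoded by 3 genes that differ in their import sequence and yield the same mature protein, and here *Atp5g3* had the highest mean with 13.3 FPKM, followed by *Atp5g2* with 9.25 and *Atp5g1* with 3.31. *Atp5s*, which is not a subunit, was near 0, at 0, 0 and 0.74 FPKM in WT stage 2, at 0.37, 1.07 and 0.81 in WT stage 3 and at 0, 0 and 0.37 in *Med23*-deficient cells.

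Since the members are a set of genes with common regulators, stretches of 6 promoters are shown. They were picked because they hold letters of a known regulator and belong to genes whose levels did not overlap between groups in a comparison below; most members without overlap had no such match, and not every one that had is shown. Promoters from RefSeq (GRCm38.p6, 250 bases before to 50 after the start) were found for 67 of the 78 members, as 73 windows. The letters GCGCATGC (NRF1), ACTTCCGG (ETS/GABP) and AAGATGGCG (YY1) were searched on both strands. NRF1 letters stood in 13.7% of the member windows and in 2.71% of all 32851 windows, YY1 letters in 12.3% and 1.4%, and ETS/GABP letters in 6.85% and 3.89%. In the stretches below, read 5′ to 3′ on the strand of the gene, capitals mark the match. The 100 bases before the start of *Atp5k* (chr5:108434400-108434499, minus strand), *Ndufa11* (chr17:56717662-56717761, plus strand) and *Sdhb* (chr4:140961171-140961270, plus strand) hold NRF1 letters, in the first pair on both strands so that the matches overlap. For *Cox8a*, ETS/GABP letters span the start itself (chr19:7217607-7217706, minus strand, the last 10 bases transcribed). For *Ndufs4* (chr13:114388047-114388071, minus strand) and *Ndufs7* (chr10:80249461-80249485, plus strand), YY1 letters lie in the first exon, shown with 25 bases of it. All starts here are those of RefSeq. By the deposited coordinates *Atp5k* starts at 108434448, *Sdhb* at 140961203 and *Ndufs7* at 80249121. Part of the *Atp5k* and *Sdhb* windows, with letters of both matches, thus lies inside the deposited gene.
Atp5k: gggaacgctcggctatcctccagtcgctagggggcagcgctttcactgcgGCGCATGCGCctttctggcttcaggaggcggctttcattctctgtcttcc
Ndufa11: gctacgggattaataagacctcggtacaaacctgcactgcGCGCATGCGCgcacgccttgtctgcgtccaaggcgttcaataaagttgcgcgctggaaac
Sdhb: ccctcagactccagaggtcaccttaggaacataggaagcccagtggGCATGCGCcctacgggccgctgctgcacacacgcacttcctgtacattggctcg
Cox8a: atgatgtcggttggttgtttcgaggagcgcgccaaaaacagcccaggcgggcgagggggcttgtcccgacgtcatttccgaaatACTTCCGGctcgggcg
Ndufs4: tttgcctacaggAAGATGGCGgcgg
Ndufs7: aaggccgaggccAAGATGGCGgcgc
These matches are letters in a window and not measured binding sites. The levels of *Ndufs4* and *Ndufs7*, which share the YY1 letters, lay on opposite sides of WT stage 2 in WT stage 3 cells, as given below. In all, 8 members held YY1 letters, and those other than this pair overlapped between groups in both comparisons below. Whether YY1 has a part in these levels was not tested.

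The 78 members were then summed in each library. Summed FPKM was 1898, 2239 and 1826 in WT stage 2, 1844, 1624 and 1280 in WT stage 3 and 1617, 1683 and 1373 in *Med23*-deficient stage 2 cells. All *Med23*-deficient libraries lay under all WT stage 2 libraries, while WT stage 3 replicate 1 lay above the lowest WT stage 2 library. Group means were 1988 ± 221, 1583 ± 284 and 1558 ± 163 FPKM (SD, n = 3), so that WT stage 3 stood at 79.6% and *Med23*-deficient cells at 78.4% of WT stage 2. As a share of all protein-coding FPKM of the same library, the members took 1.29% ± 0.0922 in WT stage 2, 1.10% ± 0.135 in WT stage 3 and 1.10% ± 0.10 in *Med23*-deficient cells (SD, n = 3). On this share the 3 WT stage 2 libraries, at 1.23% to 1.40%, lay above all others, whose highest reached 1.21%. In bulk RNA, fewer cells with a high level and a lower level in each cell cannot be told apart.

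By complex, WT stage 3 sums were 80.9% of WT stage 2 for complex I, 90.2% for complex II, 82.8% for complex III, 74.8% for complex IV and 78.9% for complex V. In *Med23*-deficient cells the same percentages were 80.0%, 84.5%, 80.8%, 73.5% and 78.5%. Complex IV had the lowest percentage in both, from 495 ± 68.4 FPKM in WT stage 2 to 370 ± 69.8 in WT stage 3 and 364 ± 52.4 in *Med23*-deficient cells (SD, n = 3). Complex V went from 480 ± 32.6 to 379 ± 58.6 and 377 ± 17.1, with no WT stage 3 or *Med23*-deficient library above the lowest WT stage 2 library. Complex II, the complex with the fewest subunits, had means of 77.2 ± 3.99, 69.7 ± 8.93 and 65.3 ± 5.31. Differences between complexes were not tested, and both comparisons share the WT stage 2 libraries, so their likeness is in part built in.

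**Figure D2:**
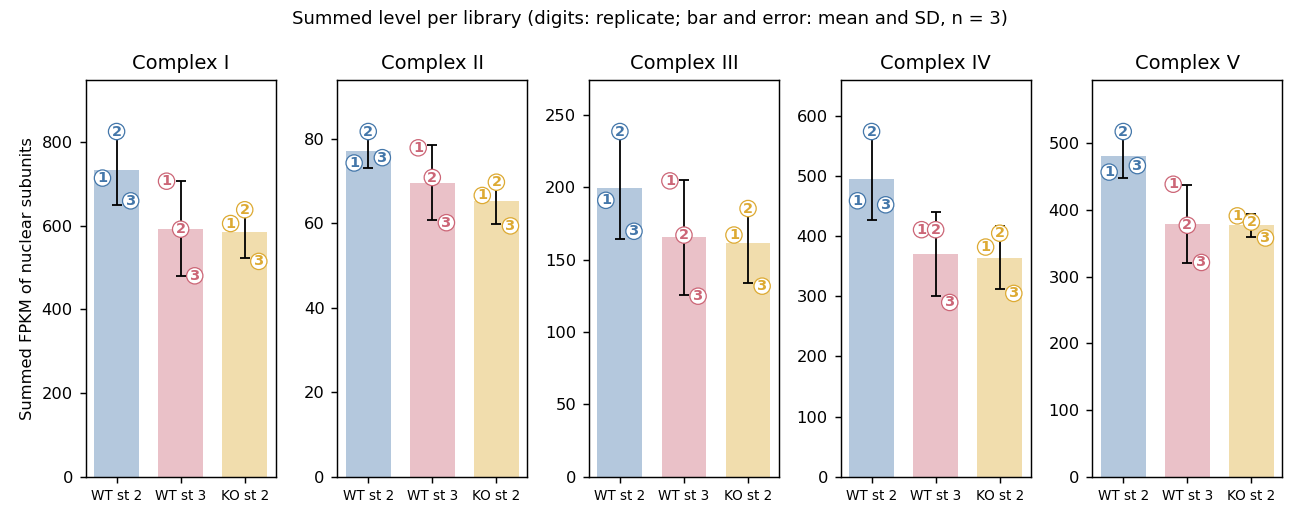
Summed FPKM of the nuclear subunit genes of each complex (vertical axis from 0) in WT stage 2, WT stage 3 and Med23-deficient (KO) stage 2 cells. Digits mark the replicates, bars the means and error bars the SD (n = 3); in complexes IV and V the WT stage 2 libraries lie above all others, and WT stage 3 replicate 3 is the lowest of its group in each complex.

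Replicates of a group stood in a like order for many members. WT stage 3 replicate 3 had the lowest value of its group for 58 of the 76 members with a mean of at least 1 FPKM and the highest for 0, and WT stage 3 replicate 1 had the highest for 50. *Med23*-deficient replicate 3 was the lowest of its group for 46 members, and WT stage 2 replicate 2 the highest of its group for 50. The members thus shared part of their spread between replicates, and the values of single members are not separate pieces of evidence. Within each group, the summed FPKM of the members was lower in libraries with more genes above 0. WT stage 2 replicates 1, 2 and 3 had 16219, 15584 and 16670 genes above 0, and those of WT stage 3 had 15647, 16290 and 17151. The *Med23*-deficient replicates had 15997, 15807 and 17333. What links these counts to the summed levels was not tested.

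The comparison of WT stage 3 with WT stage 2 addresses the last maturation step of iNKT cells. In it, OXPHOS genes were mostly lower at stage 3 by a small amount, and none passed the test over all genes. The log2 fold change on the log2(FPKM + 1) scale was below 0 for 67 of the 77 members tested, with a median of -0.34. Over all 20689 genes tested it was below 0 for 53.1% with a median of -0.01, and over genes with a mean of at least 10 FPKM for 60.7% with a median of -0.09. Among the 56 members of that level the median was -0.40. Without WT stage 3 replicate 3 the median of all members was -0.22, and without replicate 1 it was -0.46.

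By limma, 0 of 77 members reached an adjusted p of 0.05, where 1.67% of all genes did, and 0 had a fold change of at least 2 with an unadjusted p of at most 0.05, where 3.6% did. At an unadjusted p of at most 0.05, 15 members were lower and 1 was higher, beside 7.79% and 5.44% of all genes, and a model after Ballgown gave 3 lower and 0 higher. Among the 56 members with a mean of at least 10 FPKM 14 were lower and 1 higher, beside 16.4% and 9.74% of genes of that level. Over all members the count of lower ones was 9 without WT stage 3 replicate 3 and 25 without replicate 1, and at most 2 members passed the fold and p thresholds when 1 library was left out. The 3 WT stage 3 libraries lay under the 3 WT stage 2 libraries for 21 members and above them for 1, beside 10.4% and 7.36% of all genes. Among genes with a mean of at least 10 FPKM these shares were 19.1% and 11.3%, and 17 of 56 members were lower and 1 higher without overlap. When the test was limited to genes of that level, a choice made after seeing the data, *Cox5b* (adjusted p = 0.0377) and *Ndufs4* (adjusted p = 0.0444) passed. With all 9 libraries in the fit, *Ndufs4* (adjusted p = 0.0394) and *Atp5f1* (adjusted p = 0.0396) passed.

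**Figure D3:**
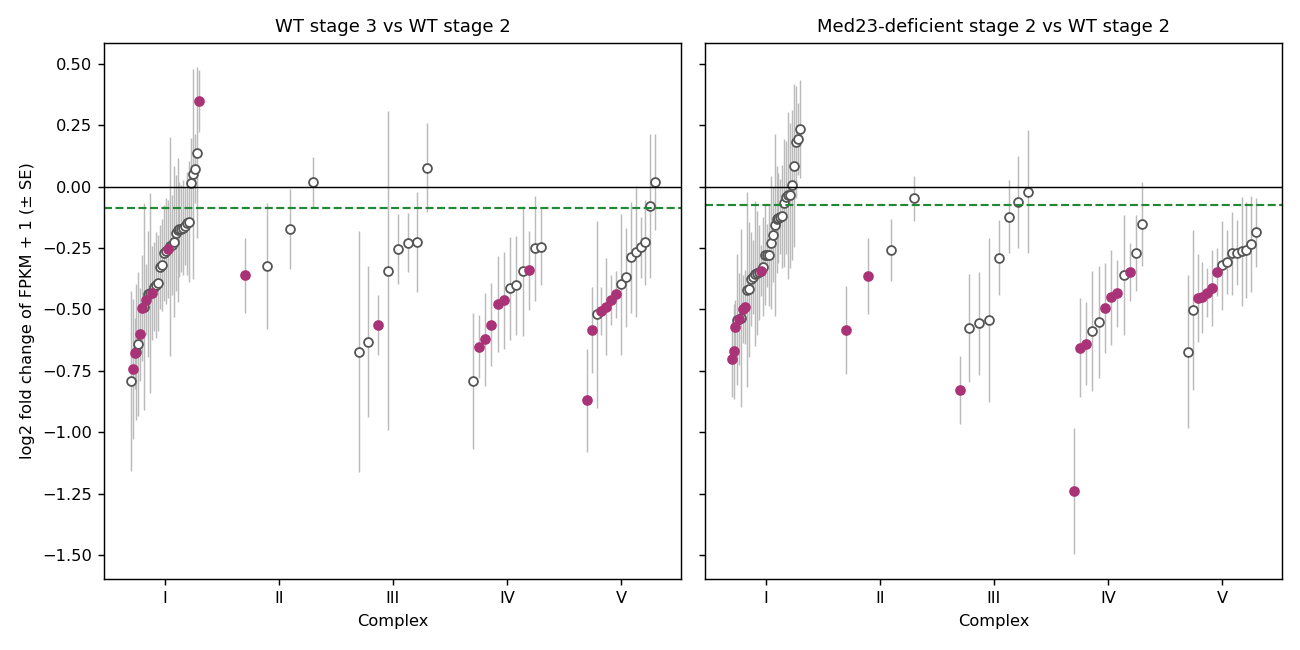
Log2 fold change of each subunit gene with its SE (vertical axis, log2 of FPKM + 1) by complex, for WT stage 3 (left) and Med23-deficient stage 2 (right) against the same WT stage 2 libraries. Filled points are genes whose groups did not overlap, and the dashed line is the median of all genes with a mean of at least 10 FPKM (-0.09 and -0.08). Most points lie under the dashed line in both panels, and *Cox6b2* is not drawn.

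Complex I, the entry point for electrons from NADH, had 31 of 36 genes below 0 with a median log2 fold change of -0.27. Its nuclear core subunits form the arm that holds the flavin and the iron-sulfur clusters. Of these, *Ndufs8* read 18.2, 18.5 and 19.8 FPKM at stage 2 and 13.3, 14.8 and 8.91 at stage 3, without overlap (log2 fold change -0.60, SE 0.19, adjusted p = 0.235). *Ndufs7*, another iron-sulfur subunit, stood against the rest. Its values were 10.9, 11.1 and 13.5 FPKM in WT stage 2 and 16.3, 15.9 and 13.9 in WT stage 3, and it was the only member higher without overlap (0.35, SE 0.13, adjusted p = 0.310). The core genes *Ndufs1*, *Ndufs3*, *Ndufv1* and *Ndufv2* had log2 fold changes between -0.33 and -0.17 and overlapped between the stages.

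Among the 29 accessory genes of complex I, *Ndufs4*, which encodes a subunit needed for stable assembly of the electron input module, showed 31.6, 39.4 and 42.9 FPKM in the stage 2 libraries against 26.2, 21.6 and 21.9 in those of stage 3. Every stage 3 library lay under every stage 2 library, at a mean of 61.2% of stage 2 (-0.68, SE 0.14, adjusted p = 0.0973). *Ndufa11*, a membrane arm subunit, had the largest difference of the complex without overlap, from 4.43, 7.48 and 4.58 FPKM to 1.86, 3.57 and 3.21 (-0.74, SE 0.29, adjusted p = 0.340). *Ndufa6*, the most abundant gene of the complex, had stage 2 values of 87.2, 82.2 and 90.9 FPKM and stage 3 values of 102, 68.5 and 65.5. Its stage 3 libraries lay on both sides of stage 2 (-0.17, SE 0.18, adjusted p = 0.696). *Ndufb9* also overlapped (-0.40, SE 0.22, adjusted p = 0.505). The other 4 accessory genes without overlap, all lower, were *Ndufb10* (-0.46), *Ndufa8* (-0.43), *Ndufb5* (-0.49) and *Ndufab1* (-0.26), the last of which also encodes the mitochondrial acyl carrier protein. The accessory genes that overlapped ranged from -0.79 for *Ndufa5* to 0.14 for *Ndufa13*.

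Complex II, succinate dehydrogenase, is the only complex encoded wholly in the nucleus. *Sdha*, its flavoprotein, read 33.1, 35.8 and 36.6 FPKM at stage 2 and 37.4, 38.3 and 31.4 at stage 3, with a log2 fold change of 0.02 (SE 0.10, adjusted p = 0.954), which turned below 0 on the TPM scale. *Sdhb*, the iron-sulfur subunit, was at 17.9, 18.7 and 15.9 and then at 13.9, 15.8 and 10.9 FPKM, just without overlap (-0.36, SE 0.15, adjusted p = 0.398). The membrane anchors *Sdhc* and *Sdhd* had log2 fold changes of -0.17 and -0.32, with overlap.

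In complex III, which passes electrons from ubiquinol to cytochrome c, 7 of 8 members were below 0 with a median of -0.30. *Uqcrfs1*, the Rieske iron-sulfur protein, was the only one without overlap, with 24.4, 28.6 and 22.4 FPKM in WT stage 2 and 16.9, 17.8 and 15.2 in WT stage 3 (-0.56, SE 0.12, adjusted p = 0.103). The core proteins *Uqcrc1* and *Uqcrc2* had log2 fold changes of -0.23 and -0.25 and overlapped. *Uqcrb* had a log2 fold change of 0.08 (SE 0.18, adjusted p = 0.868) that changed sign on the TPM scale, and *Uqcrh* one of -0.22 that changed sign in the model after Ballgown.

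Complex IV, cytochrome c oxidase, had all of its 12 tested genes below 0, with a median of -0.44, and 6 of them without overlap. *Cox5b*, which encodes a zinc-binding subunit on the matrix side, showed 33.5, 39.8 and 30.6 FPKM in the stage 2 libraries against 22.8, 22.5 and 19.4 in those of stage 3. The stage 3 mean was 62.4% of stage 2 (-0.65, SE 0.13, adjusted p = 0.0787). *Cox7a2* went from 22.6, 31.2 and 23.0 FPKM to 19.0, 17.1 and 12.9 (-0.62, SE 0.19, adjusted p = 0.225), and *Ndufa4* from 12.6, 17.2 and 14.4 to 11.5, 8.76 and 8.68 (-0.56, SE 0.17, adjusted p = 0.215). In all of these each stage 3 library was under each stage 2 library. *Cox6b1* had a larger log2 fold change of -0.79 (SE 0.28, adjusted p = 0.291), but its groups overlapped. Of the most abundant genes, *Cox8a* (-0.24), *Cox7a2l* (-0.25), *Cox6a1* (-0.41) and *Cox4i1* (-0.40) overlapped, and *Cox7b* (-0.46) did not.

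Complex V had 14 of 15 genes below 0 with a median of -0.40. *Atp5e*, the small ε subunit of the central stalk, had the largest difference of all tested members, from 15.0, 16.7 and 10.6 FPKM to 8.65, 6.03 and 6.92, a mean of 51.1% of stage 2 (-0.87, SE 0.21, adjusted p = 0.132). *Atp5b*, the catalytic β subunit, was at 82.4, 95.3 and 87.4 FPKM and then at 70.7, 63.5 and 60.8 (-0.44, SE 0.10, adjusted p = 0.105). Its stage 3 mean was 73.5% of stage 2, again without overlap. *Atp5a1*, *Atp5c1* and *Atp5d* of the same head had log2 fold changes of -0.25, -0.29 and -0.37 and overlapped. In the c-ring, *Atp5g3* was without overlap, with 17.2, 15.7 and 15.2 FPKM at stage 2 and 11.3, 10.6 and 11.1 at stage 3 (-0.51, SE 0.10, adjusted p = 0.0786). *Atp5g1* (-0.40) and *Atp5g2* (-0.26) overlapped. In the peripheral stalk, which holds the head still, *Atp5f1* (-0.46, SE 0.10, adjusted p = 0.110) and *Atp5o* (-0.49) were lower without overlap, and *Atp5h* (0.02) overlapped. *Atp5k*, a membrane subunit, had stage 3 values of 33.1, 34.8 and 24.8 FPKM, all under those of stage 2 given further on (-0.58, SE 0.17, adjusted p = 0.215).

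**Figure D4:**
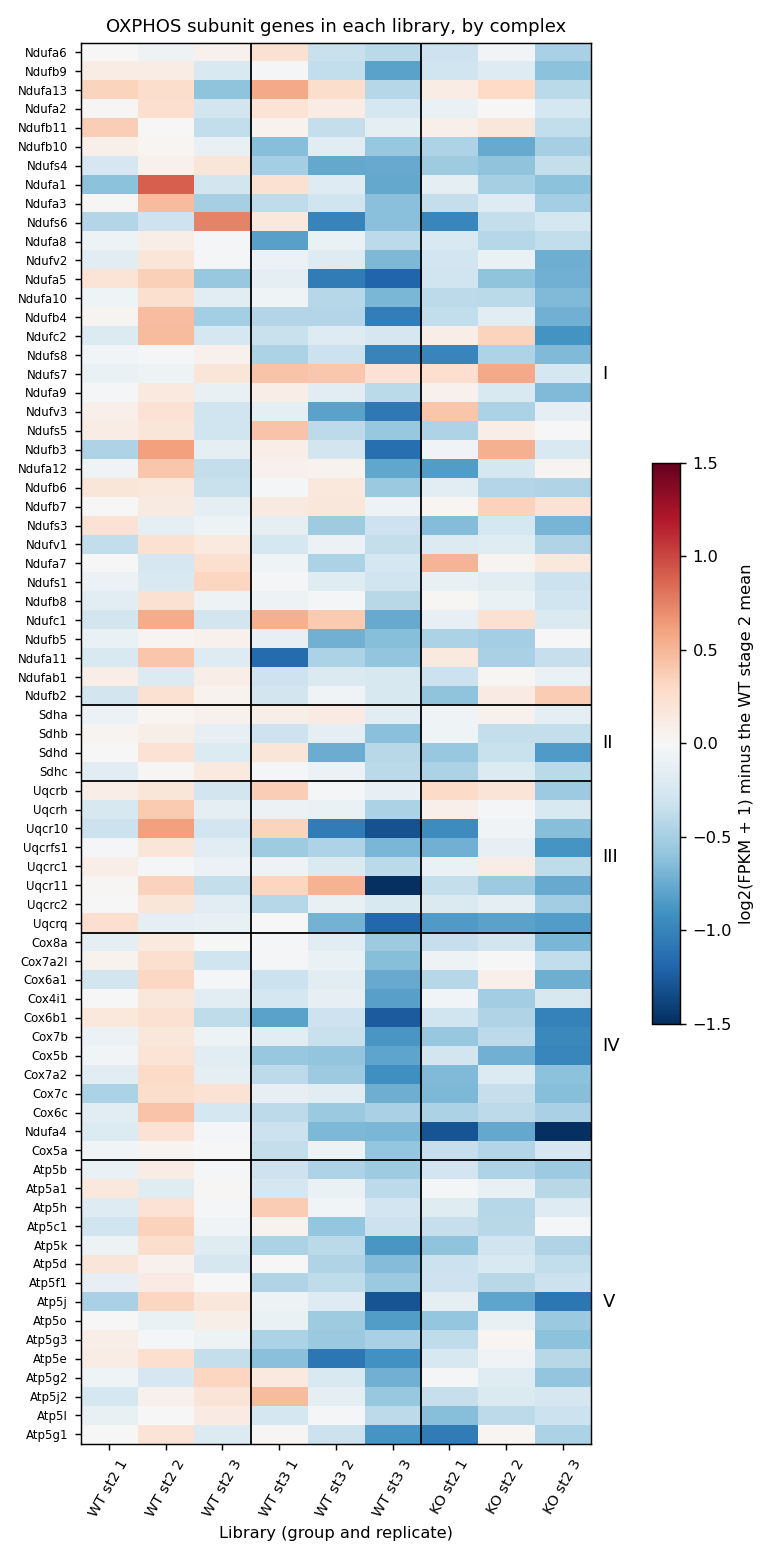
Subunit genes with a mean of at least 1 FPKM (rows, by complex and then by level) in each library (columns), as log2(FPKM + 1) minus the WT stage 2 mean; values beyond 1.5 in size are drawn at the end of the colour scale. Blue fills most of the WT stage 3 and Med23-deficient columns, deepest in replicate 3 of each, and the row of *Ndufs7* is red in all 3 WT stage 3 libraries.

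The comparison of *Med23*-deficient with WT cells, both at stage 2, addresses what differs at that stage when this Mediator subunit is lost. OXPHOS genes were again mostly lower, by a like amount, and *Ndufa4* was the only member past the fold and p thresholds. The log2 fold change was below 0 for 71 of 78 members with a median of -0.33, beside 52.7% and -0.01 for all 20674 genes tested, and 61.5% and -0.08 for genes with a mean of at least 10 FPKM. Among the 56 members of that level the median was -0.36. Leaving out 1 library at a time gave medians between -0.37 and -0.26.

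By limma, 0 of 78 members reached an adjusted p of 0.05, where 0.213% of all genes did, and *Ndufa4* alone had a fold change of at least 2 with an unadjusted p of at most 0.05, where 2.11% did. At an unadjusted p of at most 0.05, 22 members were lower and 0 higher, beside 6.02% and 3.56% of all genes, and the model after Ballgown gave 15 lower and 0 higher. Of the 56 members with a mean of at least 10 FPKM 19 were lower and 0 higher, beside 13.8% and 5.9% of genes of that level. Over all members, 14 were lower at that p without WT stage 2 replicate 2. The *Med23*-deficient libraries lay under the WT libraries for 22 members and above them for 0, beside 8.37% and 5.63% of all genes. Among genes with a mean of at least 10 FPKM these shares were 16.9% and 7.42%, and 18 of 56 members were lower without overlap. With the test limited to genes of that level, *Uqcrq* passed (adjusted p = 0.0490).

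*Ndufa4* read 12.6, 17.2 and 14.4 FPKM in WT and 5.38, 8.21 and 3.92 in *Med23*-deficient cells. The mean was 39.6% of WT, and the groups were well apart (log2 fold change -1.24, SE 0.26, unadjusted p = 0.00279, adjusted p = 0.180). It passed the fold and p thresholds under each alternative tried and in each fit that left out 1 library, but an adjusted p of 0.05 under none. The 6 other genes of complex IV without overlap were *Cox8a*, *Cox7b*, *Cox5b*, *Cox7a2*, *Cox6c* and *Cox5a*. *Cox5b* had WT values of 33.5, 39.8 and 30.6 FPKM and *Med23*-deficient values of 28.3, 20.6 and 17.0, a log2 fold change of -0.65 (SE 0.20, adjusted p = 0.36). *Cox8a*, at 96.6, 118 and 106 FPKM in WT, was at 83.8, 87.7 and 65.7 (-0.43, SE 0.14, adjusted p = 0.374). The complex had 12 of 13 genes below 0 and a median of -0.45. The exception was *Cox6b2*, whose only value above 0 is given above.

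In complex III, *Uqcrq*, a small subunit beside cytochrome b, showed 19.0, 14.4 and 14.6 FPKM in the WT libraries against 8.37, 8.67 and 8.41 in the *Med23*-deficient ones, a mean of 53.1% of WT (-0.83, SE 0.14, adjusted p = 0.107). All 8 members of the complex were below 0, with a median of -0.42, and *Uqcrq* was the only one without overlap. *Cyc1*, a complex III gene that the symbol rule does not match, had a log2 fold change of 0.10 with overlap. *Uqcrfs1* (-0.57, SE 0.22, adjusted p = 0.477) overlapped, as did *Uqcrc1* (-0.12), *Uqcrc2* (-0.29), *Uqcrh* (-0.06) and *Uqcrb* (-0.02), the last pair above 0 under a common upper quartile.

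Complex I had 31 of 36 genes below 0 with a median of -0.28. *Ndufs8* was at 9.02, 13.4 and 11.6 FPKM in *Med23*-deficient cells, a mean of 60.1% of WT (-0.70, SE 0.15, adjusted p = 0.199). *Ndufs3*, another core subunit, also lay apart (-0.54, SE 0.19, adjusted p = 0.422). All *Med23*-deficient libraries were under all WT libraries for both genes. *Ndufs1*, *Ndufv1* and *Ndufv2* had log2 fold changes between -0.38 and -0.20 with overlap, and *Ndufs7* one of 0.18 (SE 0.23, adjusted p = 0.788). *Ndufs4* was at 25.6, 24.5 and 29.2 FPKM (-0.50, SE 0.14, adjusted p = 0.300), again without overlap, while *Ndufa11*, at 6.02, 3.54 and 4.02, overlapped (-0.23, SE 0.27, adjusted p = 0.779). *Ndufb10*, an accessory subunit of the membrane arm, had WT values of 42.1, 40.9 and 37.0 FPKM and *Med23*-deficient values of 28.7, 23.2 and 28.0 (-0.57, SE 0.11, adjusted p = 0.162). *Ndufa8* (-0.34) and *Ndufa10* (-0.49) also lay under WT without overlap, and the accessory genes that overlapped ranged from -0.54 for *Ndufa5* to 0.23 for *Ndufa7*.

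In complex II, *Sdhd* had WT values of 16.5, 19.4 and 14.3 FPKM and *Med23*-deficient values of 10.9, 12.9 and 8.73 (-0.59, SE 0.18, adjusted p = 0.358), and *Sdhc* had 6.87, 7.95 and 8.76 in WT and 5.36, 6.63 and 5.66 in *Med23*-deficient cells (-0.36, SE 0.16, adjusted p = 0.542). Both anchors thus lay apart from WT, the latter by a narrow gap. *Sdha* (-0.05) and *Sdhb* (-0.26), the catalytic pair, overlapped.

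In complex V all 15 genes were below 0, with a median of -0.32 and 5 without overlap. *Atp5b* was at 71.9, 63.7 and 60.3 FPKM in *Med23*-deficient cells, 73.9% of WT (-0.43, SE 0.10, adjusted p = 0.209). *Atp5k*, a membrane subunit linked to dimers of the enzyme, showed 44.0, 55.7 and 40.6 FPKM in the WT libraries against 30.2, 37.5 and 33.5 in the *Med23*-deficient ones (-0.45, SE 0.15, adjusted p = 0.382). *Atp5e*, the gene furthest from WT stage 2 among the tested members in WT stage 3, was at 11.6, 13.4 and 10.2 FPKM and overlapped (-0.23, SE 0.20, adjusted p = 0.731). Whether its fold change differs between the comparisons was not tested. Of the peripheral stalk *Atp5f1* (-0.35) and *Atp5o* (-0.41), and of the membrane subunits *Atp5l* (-0.45), were lower without overlap. The c-ring genes *Atp5g1*, *Atp5g2* and *Atp5g3* (-0.50, -0.26 and -0.32) overlapped as well, and so did *Atp5a1* (-0.19), *Atp5c1* (-0.26) and *Atp5d* (-0.31).

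**Figure D5:**
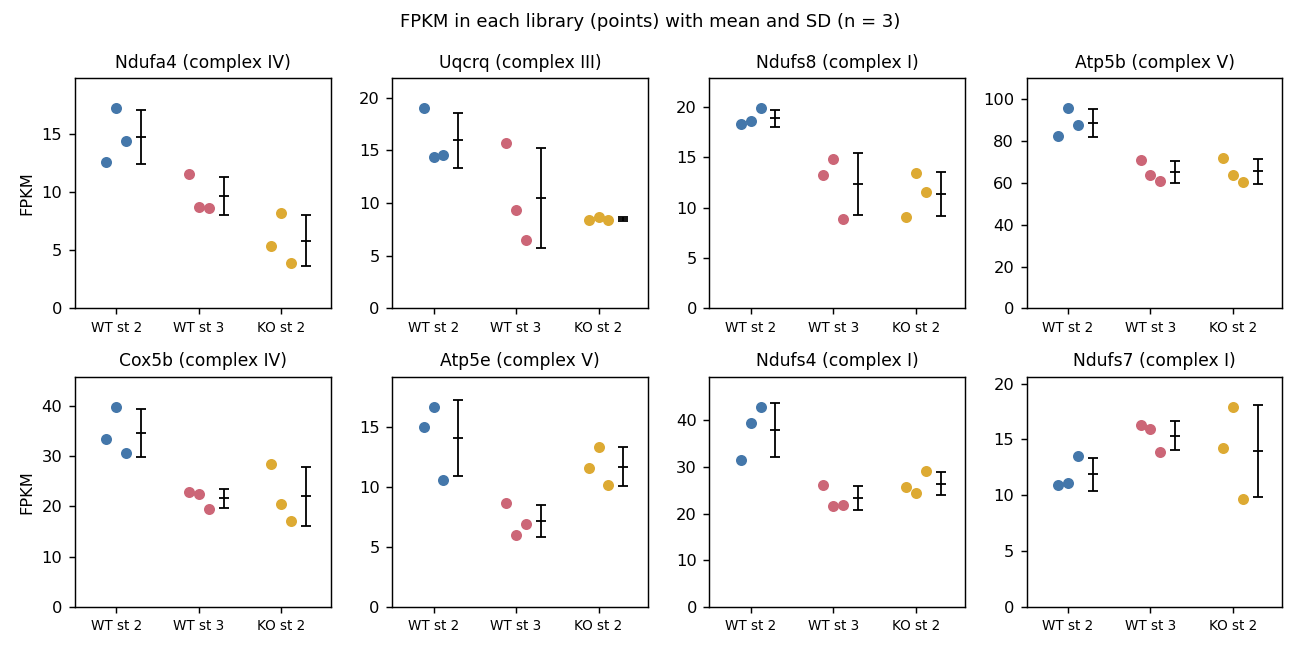
FPKM of 8 subunit genes in each library (points) with mean and SD (n = 3); each vertical axis starts at 0. On average *Ndufa4* and *Uqcrq* lie lowest in Med23-deficient (KO) stage 2 cells, *Atp5e* lies lowest in WT stage 3, *Ndufs8*, *Atp5b*, *Cox5b* and *Ndufs4* lie lower in both groups than in WT stage 2, and *Ndufs7* lies higher in WT stage 3.

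Genes that work with the nuclear subunits were counted in the same fits. The 13 subunits encoded by mitochondrial DNA all had a log2 fold change below 0 in WT stage 3 with a median of -0.41. Of them, 4 (*mt-Nd2*, *mt-Nd4*, *mt-Nd6* and *mt-Cytb*) had an unadjusted p of at most 0.05 and 0 an adjusted one. These 4 are 30.8% of the list, while 7.79% of all genes were lower at that p. Among genes with a mean of at least 10 FPKM, 16.4% were lower at that p and 60.7% were below 0. *mt-Cytb*, the mitochondrial core of complex III, was nearest with 91.8 FPKM on average in WT stage 2 and 64.1 in WT stage 3 (-0.51, adjusted p = 0.0561). In *Med23*-deficient cells 11 of the 13 were below 0 with a median of -0.19, and 0 had an unadjusted p of at most 0.05. There, 61.5% of genes with a mean of at least 10 FPKM were below 0 and 13.8% were lower at that p. The 13 are encoded on the same mitochondrial DNA, and their values are not separate pieces of evidence either. *Cycs*, which encodes cytochrome c, was at 10.5, 13.5 and 10.4 FPKM in WT stage 2, at 9.25, 6.84 and 7.48 in WT stage 3 and at 5.38, 8.77 and 7.08 in *Med23*-deficient cells. It lay under WT stage 2 without overlap in both (-0.49, adjusted p = 0.266, and -0.64, adjusted p = 0.372), while *Cyc1* of complex III had log2 fold changes of 0.01 and 0.10.

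The 49 assembly factors had a median of -0.22 in WT stage 3 with 36 below 0, and of -0.07 in *Med23*-deficient cells with 29 below 0. These are 73.5% and 59.2% of the list, beside 53.1% and 52.7% of all genes and 60.7% and 61.5% of genes with a mean of at least 10 FPKM. At an unadjusted p of at most 0.05, 4 factors (8.16%) were lower and 0 higher in WT stage 3, beside 7.79% and 5.44% of all genes. In *Med23*-deficient cells 1 (2.04%) was lower and 2 (4.08%) were higher, beside 6.02% and 3.56% of all genes. Of the factors, *Coa4* was past the fold and p thresholds in WT stage 3 (-1.05, adjusted p = 0.337) with groups that overlapped. The 13 TCA cycle genes had medians of -0.09 and -0.32, with 9 (69.2%) and 12 (92.3%) below 0. At an unadjusted p of at most 0.05, 2 (15.4%) were lower and 1 (7.69%) was higher in WT stage 3. In *Med23*-deficient cells 3 (23.1%) were lower and 0 higher. Of genes with a mean of at least 10 FPKM, 16.4% were lower and 9.74% higher in WT stage 3 at that p. In *Med23*-deficient cells 13.8% of them were lower. *Dlst* was the TCA cycle gene that was higher, without overlap (0.37, adjusted p = 0.233). *Cs*, which encodes citrate synthase, had means of 32.9, 24.4 and 19.8 FPKM in WT stage 2, WT stage 3 and *Med23*-deficient cells and overlapped in neither comparison (-0.43, adjusted p = 0.163, and -0.71, adjusted p = 0.0832). The 12 regulators, with *Nrf1*, *Gabpa* and *Yy1* among them, had medians of 0.00 and -0.12 and 0 genes with an unadjusted p of at most 0.05 in either comparison. *Yy1* had means of 23.8, 24.4 and 25.3 FPKM, *Gabpa* of 15.6, 15.6 and 12.9 and *Nrf1* of 3.74, 4.19 and 4.57.

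Ribosomal protein genes, which are known for short transcripts, had medians below 0 too. The 78 mitochondrial ribosomal protein genes had medians of -0.24 and -0.18, with 61 and 55 below 0, and the 84 cytosolic ones medians of -0.23 and -0.22, with 75 and 81 below 0. These are 78.2% and 70.5% of the mitochondrial and 89.3% and 96.4% of the cytosolic list. Of the OXPHOS genes tested, 87.0% and 91.0% were below 0. For all genes with a mean of at least 10 FPKM these shares were 60.7% and 61.5%. In each list 0 genes had an adjusted p of at most 0.05. At an unadjusted p of at most 0.05, 8 and 7 mitochondrial and 12 and 10 cytosolic genes were lower. This is 10.3% and 8.97% of the mitochondrial and 14.3% and 11.9% of the cytosolic list, beside 7.79% and 6.02% of all genes. Among genes with a mean of at least 10 FPKM the shares were higher, 16.4% and 13.8%, and the median cytosolic gene had a mean of 166 FPKM. *Mrps12* was past the fold and p thresholds in WT stage 3 (-1.05, adjusted p = 0.131) and *Rps27l* in *Med23*-deficient cells (-1.26, adjusted p = 0.299). After a correction for transcript length and GC content, chosen after seeing the data, the OXPHOS medians were -0.26 in WT stage 3 and -0.25 in *Med23*-deficient cells, beside 0.02 and 0.04 for all genes. In *Med23*-deficient cells 64 OXPHOS genes instead of 71 were then below 0. At an unadjusted p of at most 0.05, 13 instead of 22 were lower there, and 13 instead of 15 in WT stage 3. The part of transcript length in these differences was not tested.

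Markers of dividing cells and 2 markers of the NKT17 subset were lower in the same groups as the OXPHOS genes. The 12 genes of dividing cells summed to 139 to 156 FPKM in WT stage 2, 59.0 to 89.7 in WT stage 3 and 57.4 to 61.9 in *Med23*-deficient cells. All 12 were below 0 in both comparisons, with medians of -1.02 and -0.96. *Mki67*, a marker of cycling cells, passed an adjusted p of 0.05 in both. *Il23r*, the receptor for interleukin 23, had 5.48, 3.13 and 6.36 FPKM in WT stage 2 and 1.60, 0.14 and 0 in WT stage 3, and it was listed at 0 in all 3 *Med23*-deficient libraries. *Il17re* had 1.76, 0.62 and 1.31 FPKM in WT stage 2 and 0.12, 0 and 0 in *Med23*-deficient cells, and each stage 3 library had it at 0. Stage 3 markers, among them the sorting marker *Klrb1c*, summed to 42.5 to 69.4, 226 to 281 and 42.2 to 47.6 FPKM. The part of dividing cells, of NKT17 cells and of the mix of iNKT subsets in the OXPHOS levels was not tested.

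Reads of some members may be shared. By the deposited gene coordinates, 27 members overlap another gene, 8 of them on the same strand, *Atp5b* and *Atp5o* among these with 3 such genes each. For 7 genes with a matching symbol that are not listed as protein-coding, the highest level was 3.61 FPKM. Copies listed under other symbols were not looked for. Only reads that hit at most 2 loci were counted, so that reads common to a member and further copies were left out by the authors.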

How the data were processed

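The deposited RNA-seq table gives FPKM for 21883 genes in every library, with 2 decimals, calculated by the authors. Following the study's methods, total RNA libraries from a stranded low-input kit were trimmed with Trimmomatic 0.36 and aligned to mm10 with HISAT2, and genes of GENCODE vM12 were quantified with StringTie from reads at no more than 2 loci. No counts are given, so depth is unknown. The 6 libraries of each comparison were tested on log2(FPKM + 1) by limma 3.58.1 (lmFit, eBayes with trend; R 4.3.3). Genes with a value above 0 in any of the 6 entered, which left 20689 and 20674, and p was adjusted over all of these by Benjamini-Hochberg. Scripts were tested on simulated data. Alternatives changed the pseudocount, filter, scaling, model, block and libraries. Named genes were the most abundant pair of each complex, core subunits, isoform pairs, members past a threshold and the 5 largest changes without overlap in each direction, where there were as many. Genes named for another reason were chosen after their values were seen. Members, lists, tests and this rule were chosen with earlier results of these data known. Lengths are those of GENCODE vM21 transcripts, matched for all 78 members, and the cytosolic ribosomal list leaves out pseudogene symbols, *Rps6k* genes and *Rps19bp1*. Promoters are from RefSeq, GRCm38.p6. Figures were made with Python 3.11.15 and matplotlib 3.10.9. One member and one marker gene are counted in the totals but not reported here by name.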

Additional observations from a re-analysis of the deposited data

How the results depend on the processing

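Depth is unknown, and 3 libraries a group limit the precision of each change. Under the 13 alternatives other than leaving out a library, the median log2 fold change of the OXPHOS genes stayed below 0, between -0.43 and -0.26 in WT stage 3 and between -0.45 and -0.24 in *Med23*-deficient cells. Leaving out 1 library gave -0.46 to -0.22 and -0.37 to -0.26. The count of genes past an adjusted p of 0.05, 0 in both comparisons, was 2 in WT stage 3 and 1 in *Med23*-deficient cells for genes with a mean of at least 10 FPKM, where fewer genes were tested, and 2 in WT stage 3 with all 9 libraries. The count of genes past the fold and p thresholds in WT stage 3, 0, ranged from 0 to 2 when 1 library was left out: 2 without WT stage 2 replicate 3 (*Atp5e*, *Ndufa5*), 2 without WT stage 3 replicate 1 (*Ndufa5*, *Uqcr10*) and 1 without WT stage 3 replicate 2 (*Cox6b1*). At an unadjusted p, 15 lower genes in WT stage 3 became 3 after Ballgown, 9 without WT stage 3 replicate 3 and 25 without replicate 1, and 22 in *Med23*-deficient cells became 14 without WT stage 2 replicate 2 and 13 with the length and GC correction.

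Of 38 named genes over 19 alternatives, the following changed sign. In WT stage 3, *Uqcrb* was at -0.0221 and *Sdha* at -0.0819 on the TPM scale, and *Sdha* at -0.0309 without *Gm23935*. After Ballgown *Uqcrb* was at -0.125, *Uqcrh* at 0.0044, *Sdhc* at 0.0443 and *Ndufv1* at 0.205. In *Med23*-deficient cells *Uqcrb*, *Sdha* and *Uqcrh* were at 0.0822, 0.0554 and 0.0412 under a common upper quartile, at 0.0796, 0.0334 and 0.038 under quantile normalization and at 0.0789, 0.0154 and 0.0299 with the length and GC correction. After Ballgown *Atp5c1* was at 0.0028 and *Ndufs7* at -0.0541. Leaving out 1 library gave -0.0699 to 0.175 for *Uqcrb* and -0.0348 to 0.105 for *Sdha* in WT stage 3, and in *Med23*-deficient cells -0.177 to 0.241 for *Uqcrb*, -0.103 to 0.0032 for *Sdha*, -0.184 to 0.134 for *Uqcrh*, -0.239 to 0.0082 for *Uqcrc1* and -0.0076 to 0.406 for *Ndufs7*. The cause was not tested.

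Correlations of same-numbered deviations with WT stage 2 were 0.0845, 0.0310 and 0.161 for WT stage 3, where each library matched its own number best. They were 0.0346, 0.00429 and 0.144 for *Med23*-deficient cells, where 1 and 2 were crossed. These low values do not settle whether the WT stages were paired by number, and the main fits treat the libraries as unpaired. In the fit with a replicate block, 0 OXPHOS genes reached an adjusted p of 0.05 in either comparison, the medians were -0.34 and -0.33, *Ndufa4* was past the fold and p thresholds, and 26 genes were lower at an unadjusted p in each.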
